A study of Rattus norvegicus with 6 samples.

Results

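Messenger RNA of 10 rat genes of serine, one-carbon and amino acid synthesis was compared between lungs of rats given monocrotaline and lungs of control rats. The genes, with their Ensembl identifiers, were Phgdh (ENSRNOG00000019328), Psat1 (ENSRNOG00000013971), Psph (ENSRNOG00000000925), Shmt1 (ENSRNOG00000005275), Shmt2 (ENSRNOG00000008106), Mthfd2 (ENSRNOG00000010833), Asns (ENSRNOG00000007546), Pycr1 (ENSRNOG00000036682), Aldh18a1 (ENSRNOG00000015267) and Atf4 (ENSRNOG00000017801). They were taken by symbol from a table of 23802 genes, with the row of the highest mean count where a symbol had several, and all 10 had a row. The MCT group held 3 samples of whole lung, collected 4 weeks after a single injection of 60 mg/kg monocrotaline, a pyrrolizidine alkaloid that raises pulmonary artery pressure in this species. The control group held 3 samples of whole lung from rats injected with saline. All rats were male Sprague-Dawley animals labelled as wild type, weighing 200 to 250 g. The labels give the route of monocrotaline both as intraperitoneal and as subcutaneous, and that of saline as subcutaneous, so the route may have differed between the groups. They do not say whether each sample came from 1 animal. A p-value here sets the difference between the groups against the spread of samples within them, and some of that spread may be technical.

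Summed counts were 14332930 to 17096157 in the MCT samples and 13525912 to 17916134 in the controls, so that 1 CPM, the library-scaled count used for levels, stood for 13.4 to 18.5 counts. The labelled tissue matched its markers: the surfactant genes Sftpc and Sftpb, the alveolar type 1 gene Ager, the club cell gene Scgb1a1 and the endothelial gene Cldn5 were all detected, with a summed level of 14854 to 27629 CPM in MCT lungs and 26863 to 33076 CPM in control lungs.

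Cells make serine from a glycolytic intermediate through the enzymes encoded by Phgdh, Psat1 and Psph. Serine hydroxymethyltransferases pass a carbon of serine to folate, and the mitochondrial enzyme MTHFD2 oxidises that unit for export as formate, which feeds purine and thymidylate synthesis. ATF4 is a transcription factor whose translation increases when amino acids are short or the stress kinases of eIF2alpha are active, and in mouse and human cells it induces many of the enzymes described here. Proline, made by the products of Aldh18a1 and Pycr1, is a main residue of collagen.

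Of the 10 genes, 9 had enough counts to be tested. Phgdh, Shmt2, Mthfd2 and Asns were called higher in MCT lungs at an adjusted p under 0.05 (edgeR quasi-likelihood test over all genes), and none was called lower. Among the 15250 genes tested, 8.01% were called higher, 5.11% lower and 13.1% in either direction. DESeq2 and limma-voom also called 4 higher and 0 lower. Over all genes DESeq2 called 1601 higher and limma-voom 1136, against 1221 with edgeR. In the edgeR fit 0 of the 9 were lower with p under 0.05 before adjustment. In 6 of the 9 the groups were apart, each time with MCT above control, where 18.4% of the tested genes lay fully above and 17% fully below. The median log2 fold change of the 9 was 0.60, against -0.01 over all genes tested. These comparisons describe the set, which was chosen with earlier results of these data known. Without control replicate 3, Mthfd2 alone of these 4 was called.

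**Figure D1:**
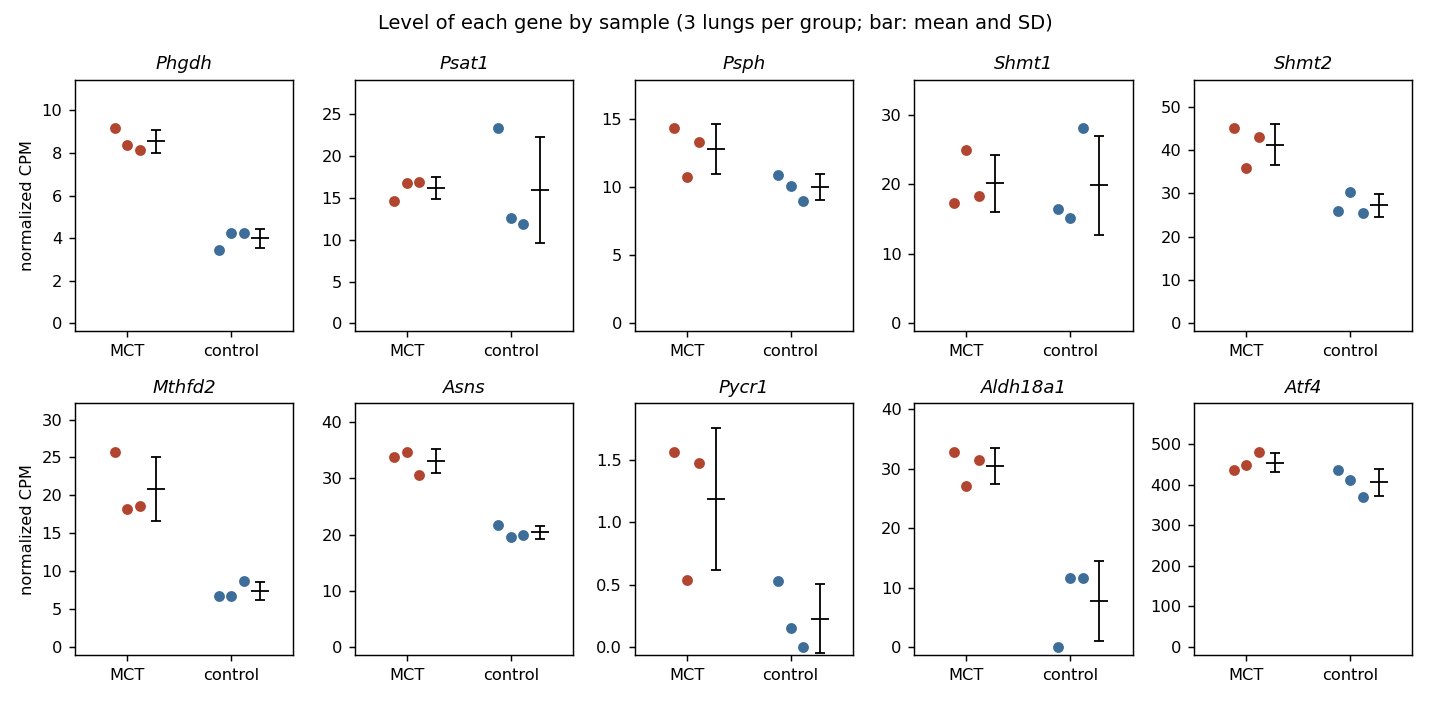
Normalized CPM of each of the 10 genes (vertical axis, separate scale per panel) in the 3 MCT samples and the 3 control samples (dots), with the group mean and SD beside them. Phgdh, Mthfd2, Shmt2 and Asns show MCT samples above every control, control replicate 1 stands high for Psat1 and at 0 for Aldh18a1, and control replicate 3 stands high for Shmt1.

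Of the 3 serine synthesis genes 1 was called higher, the gene of the first step. Phgdh, which encodes phosphoglycerate dehydrogenase and starts the pathway, stood at 9.15, 8.36 and 8.13 CPM in MCT replicates 1 to 3, against 3.46, 4.25 and 4.26 CPM in control replicates 1 to 3. Every MCT sample lay above every control. The fold was 2.14, a log2 fold change of 1.097 (SE 0.21, adjusted p = 0.0137), on 116 to 141 counts per MCT sample and 52 to 79 per control. Without control replicate 3 the adjusted p was 0.0504, with a log2 fold change of 1.15.

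Psat1, the aminotransferase of the middle step, had 14.6, 16.8 and 17.0 CPM in MCT lungs, against 23.3, 12.6 and 11.9 CPM in control lungs. Control replicate 1 was the highest of all 6 samples and the other controls were the lowest, so the groups overlapped. Psat1 differed by 0.02 on the log2 scale (SE 0.26, adjusted p = 0.97), and without control replicate 1 it was 0.40 (adjusted p = 0.167). Its sign turned in 4 of the 6 fits that left out a sample, between -0.15 and 0.40.

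Psph, the phosphatase that releases serine, had 14.3, 10.7 and 13.3 CPM in MCT lungs, against 10.9, 10.1 and 9.005 CPM in control lungs. MCT replicate 2 lay just below control replicate 1 and all other MCT samples above it. The log2 fold change of 0.36 (SE 0.18) did not pass (adjusted p = 0.231).

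Of the 3 folate enzymes among the 10 genes, Mthfd2 and Shmt2 were called higher and Shmt1 was not. Mthfd2, the mitochondrial methylenetetrahydrofolate dehydrogenase and cyclohydrolase, stood at 25.7, 18.3 and 18.6 CPM in MCT lungs, against 6.72, 6.78 and 8.74 CPM in control lungs. The lowest MCT sample had more than double the highest control. The fold was 2.80, a log2 fold change of 1.49 (SE 0.20, adjusted p = 0.00391). It was called in all 16 alternatives tried, with log2 fold changes of 1.26 to 1.63 and adjusted p of 2.27e-08 to 0.0244.

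Shmt2, the mitochondrial serine hydroxymethyltransferase, had 45.0, 35.9 and 42.9 CPM in MCT lungs, against 26.0, 30.3 and 25.5 CPM in control lungs. The groups did not overlap, but MCT replicate 2 and control replicate 2 were close. Shmt2 rose 1.51-fold, or 0.60 on the log2 scale (SE 0.14, adjusted p = 0.0279). The call ended without MCT replicate 1 or 3 or any 1 of the controls (adjusted p = 0.0519 to 0.107).

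Shmt1, the cytosolic enzyme for the same reaction, averaged 20.2 ± 4.11 CPM in MCT lungs and 19.9 ± 7.11 CPM in control lungs (SD, n = 3 each). The samples read 17.4, 24.9 and 18.3 CPM in MCT lungs, against 16.4, 15.1 and 28.04 CPM in control lungs, with control replicate 3 the highest. Shmt1 differed by 0.02 on the log2 scale (SE 0.26, adjusted p = 0.971), and it ranged from -0.16 to 0.36 with 1 sample left out.

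A ratio of genes within a library does not depend on how libraries are scaled. The log2 ratio of Mthfd2 to Mthfd2l counts, Mthfd2l being its close mitochondrial relative, was 2.49, 2.40 and 2.39 in MCT lungs, against 0.39, 0.83 and 1.20 in control lungs. The groups stood 1.62 apart on the log2 scale, with a two-sided exact permutation p = 0.1, the smallest that 3 against 3 samples allow. Mthfd2 against Mthfd1, the trifunctional cytosolic enzyme, gave log2 ratios of -0.48, -1.03 and -0.93 in MCT lungs and -2.52, -2.37 and -2.19 in control lungs, a difference of 1.54 with the same exact p = 0.1. Neither relative was called, with log2 fold changes of -0.14 for Mthfd2l (adjusted p = 0.761) and -0.06 for Mthfd1 (adjusted p = 0.757).

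Shmt2 against Shmt1 gave log2 ratios of 1.37, 0.53 and 1.23 in MCT lungs and 0.66, 1.002 and -0.14 in control lungs. These overlapped, with a difference of 0.53 (exact permutation p = 0.3), so a shift from the cytosolic to the mitochondrial transcript was not detectable with these samples. Adjusted over the 4 ratios computed, the exact p-values were 0.2 for both Mthfd2 ratios and 0.3 for Shmt2 over Shmt1.

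**Figure D2:**
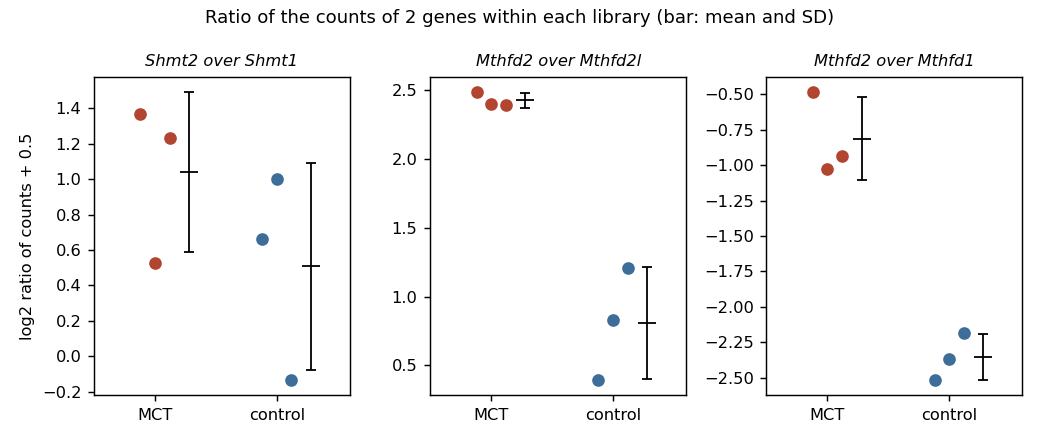
Log2 ratio of the counts of paired genes within each library (vertical axis, 0.5 added to each count, separate scale per panel) in MCT and control samples (dots), with group mean and SD. The groups are apart for Mthfd2 over Mthfd2l and for Mthfd2 over Mthfd1 and overlap for Shmt2 over Shmt1.

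Asns, asparagine synthetase, stood at 33.8, 34.7 and 30.6 CPM in MCT lungs, against 21.7, 19.7 and 19.9 CPM in control lungs. Both groups were tight and far apart relative to their spread. The fold was 1.62, a log2 fold change of 0.69 (SE 0.13, adjusted p = 0.0113), and the call ended only without control replicate 3 among the alternatives run (adjusted p = 0.0537).

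Proline synthesis starts with delta-1-pyrroline-5-carboxylate synthase, encoded by Aldh18a1. The Aldh18a1 row read 32.8, 27.0 and 31.5 CPM in MCT lungs, against 0, 11.7 and 11.6 CPM in control lungs. Control replicate 1 is listed at 0, while every other library had at least 157 counts. Its log2 fold change of 1.97 had a large error (SE 0.86) and did not pass (adjusted p = 0.166).

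A further row of the table, LOC108348083, carries the same enzyme name and the same KEGG ortholog entry, and it held 227 counts in control replicate 1. In the other libraries it held 38.9, 0 and 2.65 counts in MCT replicates 1 to 3, and 5.03 and 0 in control replicates 2 and 3. The division of reads between these rows is therefore uncertain, and it differed between libraries. Both rows together held 522, 456 and 452 counts in MCT lungs, against 227, 162 and 215 in control lungs.

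As summed levels this was 35.4, 27.0 and 31.7 CPM in MCT lungs, against 15.1, 12.1 and 11.6 CPM in control lungs. No MCT sample overlapped a control and none stood at 0. In a test chosen after seeing these values, the summed rows were 2.43-fold higher in MCT lungs, a log2 fold change of 1.28 (SE 0.17, adjusted p = 0.00334). With any 1 sample left out the summed value lay between 1.19 and 1.41 (adjusted p = 0.00302 to 0.0218). The Aldh18a1 row by itself was called when control replicate 1 was left out, at 1.39 (adjusted p = 0.00628). In the whole table, 3 genes had a count of 0 in 1 library and at least 100 in each of the others.

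**Figure D3:**
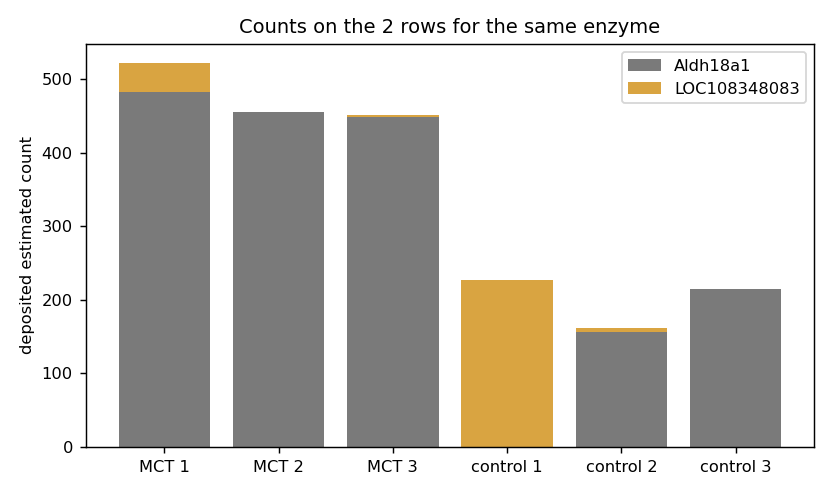
Deposited estimated counts (vertical axis) of the Aldh18a1 row and the LOC108348083 row, stacked for each sample. In control replicate 1 all 227 counts stand on LOC108348083, and the stacked totals are 452 to 522 in MCT samples and 162 to 227 in controls.

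Pycr1, the mitochondrial reductase that completes proline synthesis, was near the limit of detection and below the count filter. It had 23, 9 and 21 counts in MCT lungs, against 8, 2 and 0 in control lungs, or 1.56, 0.53 and 1.47 CPM against 0.53, 0.15 and 0 CPM. MCT replicate 2 stood level with control replicate 1. Over the summed counts of 53 in MCT lungs and 10 in control lungs the ratio was 5.43, with an exact 95% interval of 2.73 to 11.97 that covers counting error only. A fit with no filter gave an adjusted p of 0.131.

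Pycr3, the cytosolic reductase, read 18.9, 19.8 and 19.8 CPM in MCT lungs and 11.6, 10.9 and 11.8 CPM in control lungs. Pycr3 rose 1.70-fold (log2 fold change 0.77, SE 0.14, adjusted p = 0.0117) and was called in all 16 alternatives.

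Atf4 itself was the most abundant gene of the set and was not called. It stood at 435, 447 and 480 CPM in MCT lungs, against 435, 412 and 370 CPM in control lungs. The lowest MCT sample and the highest control were almost level. Atf4 differed by 0.16 on the log2 scale (SE 0.13, adjusted p = 0.431), between 0.10 and 0.22 in the alternatives. ATF4 is controlled largely through translation, and protein was not measured here.

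**Figure D4:**
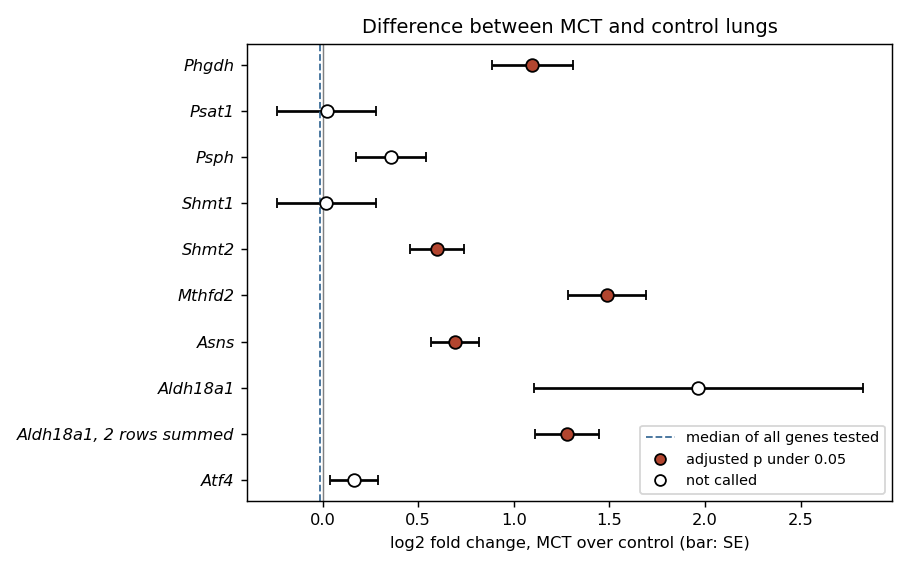
Log2 fold change of MCT over control (horizontal axis, bar: SE) for the 9 tested genes and for the summed Aldh18a1 rows, with filled dots where the adjusted p was under 0.05 and a dashed line at the median of all genes tested. Mthfd2, Phgdh, Asns, Shmt2 and the summed rows lie between 0.60 and 1.49, and Psat1, Shmt1 and Atf4 lie near 0.

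Levels of different genes were compared as FPKM, which is scaled to length. Atf4 averaged 323 ± 15.9 FPKM in MCT lungs and 290 ± 15.3 FPKM in control lungs (SD, n = 3 each), far above the rest. Shmt2 followed with 19.8 ± 2.46 FPKM in MCT lungs and 13.2 ± 1.17 FPKM in control lungs, then Asns with 15.9 ± 1.004 FPKM in MCT lungs and 9.91 ± 0.393 FPKM in control lungs. Below these the order of the means differed between the groups. In MCT lungs Psph (mean 10.99 FPKM), Mthfd2 (10.1), Shmt1 (9.81), Aldh18a1 (8.90) and Psat1 (7.97) followed, each overlapping the next over samples, and Phgdh (4.72) lay below all of them. In control lungs Shmt1 (9.80 FPKM), Psph (8.62) and Psat1 (7.86) followed with overlapping samples. Shmt1, at 14.2 FPKM in control replicate 3, also overlapped Asns and Shmt2. Psat1, at 11.2 FPKM in control replicate 1, overlapped Asns. Mthfd2 (3.62), Aldh18a1 (2.31, with control replicate 1 listed at 0) and Phgdh (2.22) came next. Aldh18a1 overlapped both of the others, while every control value of Mthfd2 lay above every control value of Phgdh. Pycr1 was lowest in each group by its mean, at 0.947 FPKM in MCT lungs and 0.18 FPKM in control lungs.

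Promoter windows from RefSeq (build GRCr8, 250 bases before to 50 after each start) were matched by symbol for 9 of the 10 genes, all but Aldh18a1. Their GC content ran from 42.3% in Phgdh to 67.3% in Asns and Shmt1, with a median of 57%, against a median of 51.7% over 33469 promoters. They held 7 to 28 CpG dinucleotides with a median of 19, where all promoters had a median of 7. On both strands, the C/EBP-ATF composite element TGATGNAAT, the kind of site ATF4 binds in other species, was found in 1 of the 9, Pycr1, and in 1.09% of all promoters. The E-box CACGTG was found in Atf4 and Shmt1 and in 6.42% of all promoters. The CCAAT box was found in Psat1, Phgdh, Mthfd2, Shmt1 and Pycr1 and in 37.5% of all promoters.

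The windows of the members with the largest called folds, Mthfd2 and Phgdh, are shown with those of Pycr1, which holds the composite element, and Atf4, which holds an E-box. They are printed 5′ to 3′ on the gene's strand, with capitals for matches to these 3 motifs on either strand. A match describes letters only and is not a site shown to be used. Only exact matches within these windows were sought, so the lack of a match does not show that a gene lacks such a site.
Mthfd2 (chr4:117380301-117380600, minus strand): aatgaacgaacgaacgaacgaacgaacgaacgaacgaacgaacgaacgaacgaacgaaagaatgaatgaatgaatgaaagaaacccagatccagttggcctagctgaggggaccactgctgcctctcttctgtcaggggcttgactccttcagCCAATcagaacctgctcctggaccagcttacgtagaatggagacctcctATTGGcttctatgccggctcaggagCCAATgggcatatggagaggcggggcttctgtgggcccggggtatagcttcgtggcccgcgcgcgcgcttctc
Phgdh (chr2:188624740-188625039, minus strand): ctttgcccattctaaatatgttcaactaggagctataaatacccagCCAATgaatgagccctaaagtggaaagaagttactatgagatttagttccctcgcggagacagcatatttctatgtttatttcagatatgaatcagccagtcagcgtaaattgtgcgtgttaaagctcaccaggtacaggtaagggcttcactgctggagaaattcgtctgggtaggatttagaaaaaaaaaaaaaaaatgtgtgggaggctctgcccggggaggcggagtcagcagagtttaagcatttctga
Pycr1 (chr10:106420763-106421062, minus strand): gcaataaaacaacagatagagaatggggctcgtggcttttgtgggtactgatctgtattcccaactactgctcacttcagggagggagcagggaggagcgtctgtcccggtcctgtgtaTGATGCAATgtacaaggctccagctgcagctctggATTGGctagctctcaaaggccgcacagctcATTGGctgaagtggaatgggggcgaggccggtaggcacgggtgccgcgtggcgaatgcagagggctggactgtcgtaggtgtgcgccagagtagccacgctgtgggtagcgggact
Atf4 (chr7:113684431-113684730, plus strand): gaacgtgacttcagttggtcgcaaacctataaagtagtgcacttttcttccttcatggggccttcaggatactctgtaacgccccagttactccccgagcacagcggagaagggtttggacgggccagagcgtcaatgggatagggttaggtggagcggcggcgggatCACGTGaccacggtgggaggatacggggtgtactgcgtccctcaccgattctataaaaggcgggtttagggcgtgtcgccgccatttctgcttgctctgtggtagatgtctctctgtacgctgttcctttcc

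In the Pycr1 window the composite element begins 131 bases before the start. The Mthfd2 window holds 3 CCAAT boxes, which begin 97, 48 and 23 bases before the start, the middle of these on the opposite strand. The E-box of Atf4 begins 82 bases before its start.

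Other genes of the same and neighbouring pathways were read from 9 lists holding 154 tested genes, of which 24 were called higher and 3 lower. That is 15.6% and 1.95%, against 8.01% and 5.11% of all genes tested, and their median log2 fold change was 0.19. These shares describe the lists and were not tested.

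Among 21 tested folate and one-carbon genes 5 were called higher, 0 lower and 16 not, with a median of 0.14. Aldh1l2, mitochondrial 10-formyltetrahydrofolate dehydrogenase, had 48, 13 and 21 counts in MCT lungs and 1 in each control, a ratio of 27.99 with an exact 95% interval of 9.25 to 139 for counting error. MCT replicate 1 held 48 of these 82 counts: the fitted log2 fold change of 4.67 was 3.96 without it (adjusted p = 0.0167). The call ended on the log2(FPKM + 1) scale (adjusted p = 0.0602). Mthfd1l, the mitochondrial formate-producing synthetase, read 13.0, 9.84 and 9.95 CPM in MCT lungs and 5.66, 6.11 and 4.58 CPM in control lungs, a 2.01-fold rise (adjusted p = 0.0202). This call ended without MCT replicate 1 or control replicate 2 or 3 (adjusted p = 0.0535 to 0.0822).

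Folr2, a folate receptor found on macrophages, had the smallest p of the list, with 44.2, 21.5 and 26.7 CPM in MCT lungs, against 4.33, 3.50 and 3.61 CPM in control lungs (8.06-fold, adjusted p = 0.000992). Atic, the last enzyme of purine synthesis and the gene of the list with the highest FPKM averaged over all 6 samples, stood at 103 ± 20.4 CPM in MCT lungs and 66.4 ± 8.30 CPM in control lungs (SD, n = 3 each, log2 fold change 0.63, adjusted p = 0.038). Its call ended without MCT replicate 1 or 3 or control replicate 2 or 3 (adjusted p = 0.0842 to 0.135). Tyms, thymidylate synthase, named after its values were seen, rose by 1.098 (log2, adjusted p = 0.0252), a call that ended under the replicate block and without MCT replicate 1 or 2 or any 1 of the controls (adjusted p = 0.0512 to 0.0882 without a sample).

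In the ATF4 target list 7 of 29 tested genes were called higher, 1 lower and 21 not, with a median of 0.40. Gdf15, a stress-induced cytokine, read 25.6, 30.6 and 25.3 CPM in MCT lungs and 5.26, 6.93 and 4.42 CPM in control lungs (4.93-fold, adjusted p = 0.00078). Eif4ebp1, a repressor of translation initiation, read 46.0, 43.9 and 46.9 CPM in MCT lungs and 27.5, 25.9 and 22.6 CPM in control lungs (1.80-fold, adjusted p = 0.00523). Both were called in all 16 alternatives. Aldh1l2 and Mthfd1l stand in this list too. Gdf15 is also induced by p53.

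The remaining higher calls of that list, named after their values were seen, were Atf3 (log2 fold change 0.98, adjusted p = 0.0173) and the amino acid transporters Slc7a5 (1.27, adjusted p = 0.0359) and Slc7a1 (0.93, adjusted p = 0.0213). Each ended with a sample left out: Atf3 without MCT replicate 1 or control replicate 2 or 3 (adjusted p = 0.0501 to 0.0646), Slc7a1 without these or MCT replicate 3 (0.06 to 0.0862), and Slc7a5 without MCT replicate 1 or 3 or any 1 of the controls (0.0687 to 0.101). Slc7a5 was also not called with limma-voom, with the replicate block or on either FPKM scale. The 1 lower call of that list was Slc6a9, a glycine transporter (log2 fold change -0.72, adjusted p = 0.03). That call ended under the replicate block and without MCT replicate 1 or 3 or any 1 of the controls.

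Among the 21 genes of the list that did not pass were Ddit3, Trib3 and Chac1, named after their values were seen. Ddit3, the transcription factor CHOP, read 36.7, 34.3 and 23.7 CPM in MCT lungs and 37.5, 20.4 and 22.8 CPM in control lungs (adjusted p = 0.591). Trib3, a pseudokinase, read 9.09, 13.6 and 14.0 CPM in MCT lungs and 10.2, 11.9 and 11.7 CPM in control lungs (adjusted p = 0.755). Chac1, which breaks down glutathione, stood at a log2 fold change of 0.90 (SE 0.39, adjusted p = 0.158). Vegfa, with the highest mean FPKM of the list, averaged 987 ± 298 CPM in MCT lungs and 1426 ± 80.8 CPM in control lungs (SD, n = 3 each, log2 fold change -0.53, adjusted p = 0.151), and passed as lower once MCT replicate 2 was removed, at 0.0427.

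Of 16 tested eIF2alpha kinases and regulators 1 was called higher and 0 lower, with a median of 0.04. The gene was Oma1, a mitochondrial stress protease, at 20.6, 15.2 and 16.6 CPM in MCT lungs and 10.9, 9.31 and 9.06 CPM in control lungs (log2 fold change 0.84, adjusted p = 0.0199). Its call ended without MCT replicate 1 or control replicate 2 or 3 (adjusted p = 0.0646 to 0.0824). Dele1, the OMA1 substrate that relays mitochondrial stress, differed by -0.45 on the log2 scale (adjusted p = 0.0731), and passed as lower once MCT replicate 2 was removed, at 0.0288, or under DESeq2, at 0.0471. Eif2s1, which encodes eIF2alpha, had 0.43 (adjusted p = 0.12, and 0.0455 without MCT replicate 2), and Eif2b3 had 0.45 (adjusted p = 0.075).

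Cytosolic aminoacyl-tRNA synthetases, which charge tRNAs with amino acids, lay almost all on 1 side. Of these, 19 of 20 had a log2 fold change above 0, where 7422 of all 15250 genes tested did. The median was 0.40, and 4 were called higher and 0 lower. Aars, the alanyl enzyme, read 125, 123 and 113 CPM in MCT lungs and 82.7, 76.4 and 80.7 CPM in control lungs (1.51-fold, adjusted p = 0.0102). Gars, the glycyl enzyme, read 85.7, 79.7 and 73.1 CPM in MCT lungs and 54.4, 47.7 and 46.7 CPM in control lungs (1.604-fold, adjusted p = 0.00958). Both calls ended without control replicate 3 (adjusted p = 0.0501 and 0.0515).

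Farsb, a phenylalanyl subunit, rose 1.70-fold (adjusted p = 0.038), a call that ended without MCT replicate 1 or 3 or control replicate 2 or 3 (adjusted p = 0.0866 to 0.109). Yars, the tyrosyl enzyme, named after its values were seen, rose by 0.44 (log2, adjusted p = 0.0451) and lost its call in 10 of 16 alternatives, among them each fit lacking a control or MCT replicate 1 or 3, at 0.0922 to 0.131. Qars, the glutaminyl enzyme, read 148, 161 and 145 CPM in MCT lungs and 148, 164 and 147 CPM in control lungs (log2 fold change -0.01, adjusted p = 0.951).

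Serine and glycine use and transport showed 1 gene higher, 1 lower and 20 not called of 22 tested, with a median of 0.15. Slc6a9, the glycine transporter GLYT1, fell to 16.7, 23.8 and 20.2 CPM in MCT lungs, against 36.6, 35.3 and 28.3 CPM in control lungs (log2 fold change -0.72, adjusted p = 0.03). Gcsh, a carrier subunit of the glycine cleavage system, rose by 0.50 (log2, adjusted p = 0.0433). Both calls ended under the replicate block and without MCT replicate 1 or 3 or any 1 of the controls (adjusted p = 0.0516 to 0.0997 for Slc6a9 and 0.0635 to 0.14 for Gcsh), and that of Gcsh also with no filter. Ptdss1, phosphatidylserine synthase, had 0.44 (adjusted p = 0.0573, called with DESeq2), and Serinc3, a membrane protein of the serine incorporator family, had -0.15 (adjusted p = 0.548).

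Of 16 methionine cycle, transsulfuration and polyamine genes 2 were called higher, 0 lower and 14 not, with a median of -0.10. Odc1, the first enzyme of polyamine synthesis, stood at 254, 233 and 282 CPM in MCT lungs, against 160, 92.6 and 97.5 CPM in control lungs (2.20-fold, adjusted p = 0.0126), and lost its call without control replicate 2 or 3 (adjusted p = 0.053 and 0.0588). Nnmt, which methylates nicotinamide, rose 2.11-fold (adjusted p = 0.0225), a call that ended under the replicate block and without MCT replicate 1 or 3 or any 1 of the controls (adjusted p = 0.0555 to 0.089). The methionine adenosyltransferase genes Mat1a and Mat2a differed by 0.64 (adjusted p = 0.052) and -0.04 (adjusted p = 0.874) on the log2 scale. Mat1a passed once MCT replicate 2 was removed, at 0.0337, or under DESeq2, at 0.0213, and Mat2a turned to 0.04 without MCT replicate 3 or control replicate 1.

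Of 19 tested proline, ornithine, glutamate and arginine genes 3 were called higher and 0 lower, with a median of 0.13. Beside Pycr3 these were Arg1, arginase, at 61.7, 15.6 and 28.4 CPM in MCT lungs and 12.7, 12.4 and 10.03 CPM in control lungs (adjusted p = 0.0446), and Agmat, an agmatinase family gene, at 1.70, 1.66 and 1.82 CPM in MCT lungs and 0.532, 0.745 and 0.593 CPM in control lungs (adjusted p = 0.03). MCT replicate 1 stood far above the rest for Arg1, whose log2 fold change of 1.59 was 0.91 without it (adjusted p = 0.0818). The Arg1 call also ended without MCT replicate 3 or any 1 of the controls (adjusted p = 0.0735 to 0.143), and that of Agmat without any 1 of the 6 samples (adjusted p = 0.0508 to 0.12). The replicate block ended both, limma-voom and the FPKM scales ended that of Arg1, and the fit with no filter that of Agmat. Glul, glutamine synthetase, had 0.73 (adjusted p = 0.0687) and passed once MCT replicate 2 or control replicate 1 was removed (adjusted p = 0.0359 and 0.039) and with DESeq2 (0.0133).

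Of 13 asparagine, aspartate, alanine and branched-chain genes 2 were called higher, 1 lower and 10 not, with a median of 0.11. Gpt, the cytosolic alanine aminotransferase, fell to 30.4, 58.9 and 53.4 CPM in MCT lungs, against 138, 105 and 81.9 CPM in control lungs (log2 fold change -1.19, adjusted p = 0.0237). Bcat1, the cytosolic branched-chain aminotransferase, read 33.0, 11.2 and 31.0 CPM in MCT lungs and 8.92, 9.98 and 9.22 CPM in control lungs (log2 fold change 1.42, adjusted p = 0.0359), and MCT replicate 2 was close to the controls. Aspa, which cleaves N-acetylaspartate, rose by 0.64 (log2, adjusted p = 0.023), and Got2, mitochondrial aspartate aminotransferase, had 0.31 (adjusted p = 0.145).

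The calls of Gpt, Bcat1 and Aspa ended under the replicate block, and that of Bcat1 also with limma-voom and on the FPKM scales. The call of Gpt also ended without MCT replicate 3 or control replicate 1 or 2 (adjusted p = 0.0579 to 0.0722), that of Bcat1 without MCT replicate 1 or 3 or any 1 of the controls (adjusted p = 0.0888 to 0.115), and that of Aspa without MCT replicate 1 or any 1 of the controls (adjusted p = 0.0599 to 0.0755).

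The Myc family list held Myc, which drives biosynthetic genes, and also its partner Max and the antagonist Mxi1. Of its 6 genes 1 was called higher and 1 lower, with a median of 0.32. Mycl read 27.3, 21.5 and 19.1 CPM in MCT lungs and 10.9, 13.1 and 12.6 CPM in control lungs (1.85-fold, adjusted p = 0.0163), which no longer passed once control replicate 3 was removed, at 0.0593. Mxi1, a Myc antagonist, fell to 83.1, 98.9 and 93.0 CPM in MCT lungs, against 130, 130 and 133 CPM in control lungs (adjusted p = 0.0203), a call that ended without MCT replicate 1 or 3 or control replicate 2 or 3 (adjusted p = 0.0647 to 0.0822). Myc differed by 0.65 on the log2 scale (adjusted p = 0.0818, called without MCT replicate 2 at 0.0203 and with DESeq2 at 0.036), and Max, the partner of Myc, had 0.08 (adjusted p = 0.747).

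**Figure D5:**
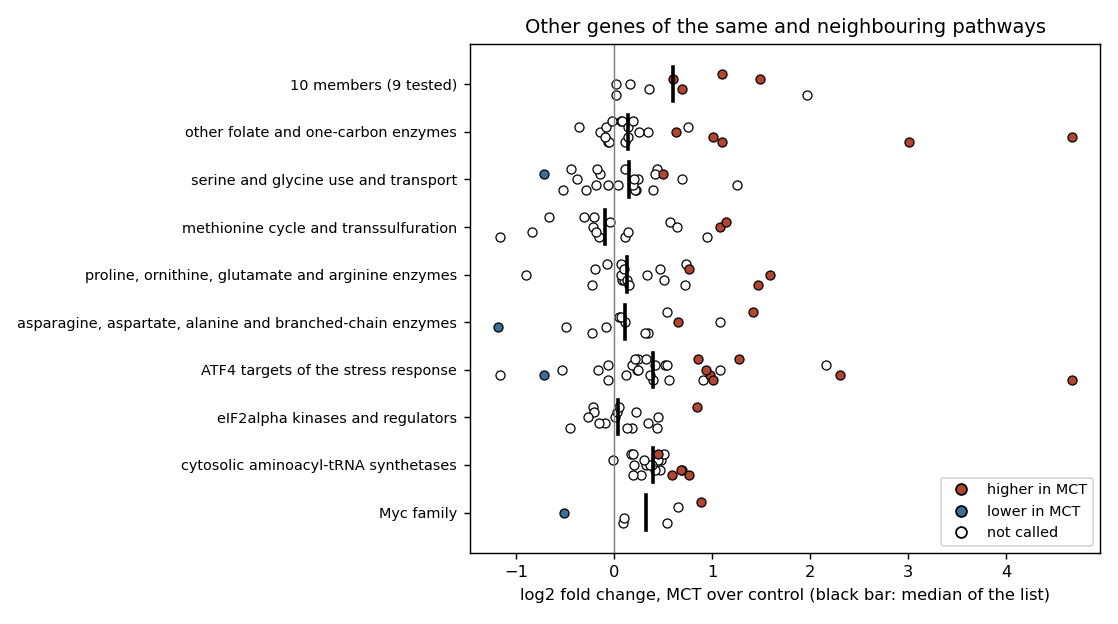
Log2 fold change of MCT over control (horizontal axis) of every tested gene in the set of 10 and in each of the 9 lists, with filled dots for genes called higher or lower and a black bar at each list's median. The medians run from -0.10 for the methionine list to 0.60 for the set of 10. Of the aminoacyl-tRNA synthetases 19 of 20 lie above 0, as do 7422 of all 15250 genes tested.

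Markers of several cell types also differed between the groups. Whole lung was measured, so more or fewer cells of a type and more or less RNA per cell cannot be told apart. Of 8 dividing-cell markers 8 were called higher, with summed levels of 258 to 297 CPM in MCT lungs and 68.7 to 79.1 CPM in control lungs, and Mki67, the proliferation marker, rose by 1.94 (log2, adjusted p = 0.00141). Fibroblast and matrix markers summed to 7102 to 9126 CPM in MCT lungs and 3230 to 3431 CPM in control lungs, with 4 of 8 higher. Mast cell markers summed to 365 to 1273 CPM in MCT lungs and 14.99 to 26.5 CPM in control lungs, with 5 of 5 higher, and smooth muscle markers to 1045 to 1416 CPM in MCT lungs and 769 to 907 CPM in control lungs, with 3 of 5 higher.

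Endothelial markers were lower, at 916 to 1803 CPM in MCT lungs and 2677 to 2983 CPM in control lungs, with 3 of 6 called lower. Alveolar type 2 markers summed to 12426 to 20503 CPM in MCT lungs and 21421 to 24361 CPM in control lungs, with 3 of 6 called lower. Macrophage markers overlapped in their sum, at 25758 to 34374 CPM in MCT lungs and 30032 to 39143 CPM in control lungs, where Lyz2 made up most of the sum, with a mean of 28214 CPM in MCT lungs and 33991 CPM in control lungs (log2 fold change -0.27, adjusted p = 0.538). Of the 7 tested macrophage markers 5 were called higher, with a list median of 1.30, among them Cd68 at a mean of 119 CPM in MCT lungs and 30.6 CPM in control lungs. Sums also overlapped for alveolar type 1 cells (2513 to 4627 CPM in MCT lungs, 3424 to 4450 CPM in control lungs), T cells (46.4 to 61.0 CPM and 49.8 to 76.1 CPM), B and plasma cells (183 to 230 CPM and 153 to 188 CPM), neutrophils (42.9 to 578 CPM and 29.1 to 54.0 CPM) and erythroid cells (764 to 2742 CPM and 1058 to 1587 CPM). Of these, 1 of 5 alveolar type 1 and 1 of 4 T cell markers were called lower, and 2 of 5 B and plasma cell markers were called higher and 2 lower.

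Liver markers were read because liver makes much of some serine and one-carbon enzymes. Whether it does so for each of the 10 genes was not checked. These markers were low and overlapped, at 1.68 to 27.5 CPM in MCT lungs and 18.6 to 37.8 CPM in control lungs. Heart markers were also low and overlapped, at 17.0 to 44.1 CPM in MCT lungs and 14.0 to 32.6 CPM in control lungs. Of the 4 heart genes 1 had no count. No marker of the other lists was at 0 in all samples. The part of cell composition in the differences of the 10 genes was not tested.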

How the data were processed

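PolyA RNA-seq of 3 MCT and 3 control samples of rat lung was analysed, grouped by the sample titles. The deposited table holds, per the column headers, a count and an FPKM value per gene and sample, both made by the authors. The submitters name the counts raw, but some are not whole, so they are called estimated counts here. Bowtie2, TopHat2 2.0.3.12 and the build Rnor_6.0 are named in the submitters' processing notes. Sources used here do not name the counting tool or the gene annotation, nor how strand and multiply matching reads were handled. Between 90.7% and 91.5% of the deposited estimated counts above 0 were exactly whole as written, with no tolerance, and all were rounded for the tests. The 10 genes and the gene lists were chosen with earlier results of these data known.

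Rounded counts of all 6 samples were scaled by TMM, filtered with filterByExpr (minimum count 10, total 15) to 15250 genes, and fitted by quasi-likelihood in edgeR 4.0.16 under R 4.3.3 with no covariates. Calls needed an adjusted p (Benjamini-Hochberg, all genes tested) under 0.05. CPM values use TMM-scaled library sizes, fold changes are MCT over control, and the SE is the log2 fold change over the root of the F statistic. The function was checked on simulated counts. Within-library ratios used a pseudocount of 0.5 and exact permutation, and 1 of the 4 computed is not reported here. Named besides the 10 genes are, per list, the 3 tested genes of smallest p and the tested gene of highest mean FPKM, and the second gene of each ratio. Tyms, Yars, Mki67 and 6 ATF4 targets were named outside this rule, after their values were seen. Every pair of replicates differed by more than sampling noise (chi-square per degree of freedom 23.2 to 52.6). Counts carry no molecular identifiers, so intervals cover counting error only. Alternatives were DESeq2 1.42.0, limma-voom (limma 3.58.1), RLE and upper-quartile scaling, no filter, at least 50 counts in 3 samples, limma on log2(FPKM + 1) and log2(FPKM + 0.1), a replicate block, each sample left out, and, chosen after seeing the data, the summed Aldh18a1 rows. The summed rows leave the counts of all other genes as they were, so for those genes this alternative nearly repeats the main fit. The RefSeq promoter windows are in GRCr8, another build than that of the counts.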

Additional observations from a re-analysis of the deposited data

How the results depend on the processing

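With 1 sample left out, the number of the 10 genes called higher ranged from 1 to 4 and the number called lower stayed at 0. It was 3 with the replicate block and 5 with the Aldh18a1 rows summed. Over all genes, 481 to 1394 were called higher and 212 to 978 lower with 1 sample left out. DESeq2 called 1601 higher against 1221, and 1182 lower against 779. Of 144 alternative values for the 9 tested members, 127 kept direction and call, 8 lost the call (Phgdh, Shmt2, Asns), 2 gained it (Aldh18a1) and 7 turned sign, all of them Psat1 (-0.15 to 0.40 with a sample left out) or Shmt1 (-0.16 to 0.36). Of 749 values for 47 other genes followed singly, 110 lost the call, 12 gained it and 7 turned, all with a sample left out, in Mat2a (-0.111 to 0.0401), Qars (-0.0639 to 0.0422), Max (-0.0481 to 0.205) and Mthfd2l (-0.282 to 0.0175). Both totals include the fit with the Aldh18a1 rows summed, which could hardly change the value of any other gene. The within-library differences kept their sign, from 0.21 to 0.79 for Shmt2 over Shmt1, 1.41 to 1.82 for Mthfd2 over Mthfd2l and 1.37 to 1.65 for Mthfd2 over Mthfd1 with a sample left out. Of 288 list counts 72 moved by over 1.5 times, 56 of them with a sample left out. The cause was not tested.

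The replicate numbers gave no pairing: deviations of same-numbered samples correlated at -0.0583, -0.0695 and -0.0024 across genes. With the replicate block 917 genes were called higher and 546 lower, against 1221 and 779, and Shmt2 was not called (adjusted p = 0.0709). Pycr1 lay below the count filter and did not pass in the fit with no filter (adjusted p = 0.131), and 3 samples a group limit the exact permutation tests to p = 0.1.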
